A study of Mus musculus with 7 samples.

Results

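Chromatin accessibility was examined at 10 genes that mark cells living beside muscle stem cells (MuSCs) in skeletal muscle: the fibro-adipogenic genes Pdgfra, Dcn, Lum, Ly6a, Cd248 and Pparg, the pericyte genes Pdgfrb and Rgs5, and the tendon genes Scx and Tnmd. They were chosen by name from 21887 protein-coding genes, with earlier results of these data known. The measurements came from ATAC-seq, in which the Tn5 transposase cuts and tags DNA where chromatin is open, so that tags pile up into peaks. Each library was made from 5000 MuSCs freshly sorted from the hindlimb muscles of a male mouse aged 5 to 6 weeks on a C57BL/6 background. There were 4 libraries from Nedd4L-cKO mice (Nedd4L fl/fl; Pax7 cre/+), in which Cre driven by Pax7 removes a floxed exon of the E3 ubiquitin ligase gene Nedd4L in MuSCs and in the cells that descend from them. The other 3 libraries came from WT mice, whose floxed alleles and Cre status were not given in the sources used here. The sort kept cells positive for ITGA7 and Hoechst and removed cells positive for CD31, CD45, CD11b or SCA1. The question was whether loss of Nedd4L alters the accessible chromatin of MuSCs, here at genes of other lineages.

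Fibro-adipogenic progenitors are mesenchymal cells of the muscle interstitium that carry PDGFRα and SCA1, support regeneration, and can become fibroblasts or adipocytes. Pericytes wrap the capillaries and carry PDGFRβ, while tenocytes build the tendon under the transcription factor Scleraxis. A gene can have an accessible promoter without being transcribed, and many lineage genes that lack CpG-rich promoters open only in the cells that use them. SCA1 is the product of Ly6a, so the sort acted on the product of 1 of the 10 genes.

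The libraries held 14.4 to 20.1 M tags (mega) after peak calling kept 1 tag per position, out of 28353538 to 42431517 tags read. They had 69302 to 79158 peaks on 21 chromosomes. All 16 MuSC markers, among them Pax7, Myf5 and Calcr, had a promoter peak in all 7 libraries. Of 10 endothelial markers 5 to 6 per library had one. Tek, Erg, Cldn5, Flt1 and Kdr were called in all 7 libraries at median percentiles of 50.7 to 80.9, Esam in 1, and Pecam1, Cdh5, Tie1 and Emcn in none. Of 10 immune markers only Cd14 had one, in all 7 libraries, and Ptprc, which encodes CD45, had none. Of 6 Schwann cell markers 4 had one in all 7 libraries. WT replicate 3 was the only library of sequencing lane 2, and leaving it out kept the comparison within lane 1.

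A promoter was taken as any annotated transcription start with 1 kb on both sides, and a locus as the gene with 10 kb on both sides. The level of a peak is given as its pileup percentile, the rank of its mean tag coverage among all peaks of the same library from 0 to 100, a scale that does not depend on gene length. The fold percentile ranks instead the fold enrichment, pileup over the local background, and is given for some of the regions where it turns an order. Positions are on mm10, and distances run from the outer 5′ end of the gene in the direction of transcription. Whether a peak lies in an exon or an intron was not determined.

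Promoter sequence differed among the genes in the number of CpG dinucleotides. RefSeq promoters on GRCm38 were matched for 4 of the 10 genes, and the 250 bases before 5 of their starts are shown because these starts ranged from a peak in no library to a peak in all 7. Capitals mark CpG dinucleotides.
Tnmd, chrX:133850758-133851007, plus strand, peak in 0 libraries: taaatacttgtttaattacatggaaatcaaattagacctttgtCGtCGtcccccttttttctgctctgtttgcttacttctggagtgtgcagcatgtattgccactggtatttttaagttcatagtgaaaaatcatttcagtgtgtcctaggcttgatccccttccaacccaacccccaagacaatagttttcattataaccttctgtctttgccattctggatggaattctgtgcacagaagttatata
Pdgfra, inner start, chr5:75152001-75152250, plus strand, peak in 0 libraries: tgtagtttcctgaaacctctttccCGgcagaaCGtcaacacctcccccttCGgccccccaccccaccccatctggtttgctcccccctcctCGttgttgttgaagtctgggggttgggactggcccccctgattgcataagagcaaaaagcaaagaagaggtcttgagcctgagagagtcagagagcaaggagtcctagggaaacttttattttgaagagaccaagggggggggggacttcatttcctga
Rgs5, chr1:169655251-169655500, plus strand, peak in 1 library: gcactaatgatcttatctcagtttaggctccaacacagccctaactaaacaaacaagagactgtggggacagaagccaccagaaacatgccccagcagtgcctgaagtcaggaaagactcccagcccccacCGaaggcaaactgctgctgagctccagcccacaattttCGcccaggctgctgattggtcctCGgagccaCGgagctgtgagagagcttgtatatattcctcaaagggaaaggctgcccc
Pparg, inner start of the adipocyte form, chr6:115421816-115422065, plus strand, peak in 6 libraries: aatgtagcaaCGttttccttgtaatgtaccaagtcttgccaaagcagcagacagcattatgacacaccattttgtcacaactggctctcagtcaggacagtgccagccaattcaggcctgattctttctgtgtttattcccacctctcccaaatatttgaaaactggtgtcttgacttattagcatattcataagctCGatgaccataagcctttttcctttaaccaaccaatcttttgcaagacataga
Pparg, upstream start, chr6:115362099-115362348, plus strand, peak in 7 libraries: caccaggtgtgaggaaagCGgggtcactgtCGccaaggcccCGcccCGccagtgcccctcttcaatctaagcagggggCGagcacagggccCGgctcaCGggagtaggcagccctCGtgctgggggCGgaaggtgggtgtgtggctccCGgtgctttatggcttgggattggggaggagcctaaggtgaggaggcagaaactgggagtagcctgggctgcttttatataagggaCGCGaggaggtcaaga

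Tnmd and the inner Pparg start held 2 CpG dinucleotides each, Pdgfra and Rgs5 held 4 each, and the upstream Pparg start shown held 12. The outermost of the Pparg starts in the RefSeq table, which shared its accessible region, held 38. The median over 21255 promoters of protein-coding genes was 10. Across these promoters, 8.92% of the 4797 with 0 to 2 CpG dinucleotides, 30.8% of the 3232 with 3 to 5, 88.5% of the 2856 with 10 to 14 and 96.1% of the 5048 with at least 20 had a peak in all 7 libraries. The inner Pparg start thus had a peak in 6 of 7 libraries in a class where 85.6% of promoters had a peak in none. The TATA motif TATAAA, searched on both strands of the 250 bases, occurred in the upstream Pparg promoter shown and in 11.6% of all promoters. The GC-box motif GGGCGG, searched likewise, occurred 2 times in that promoter, 1 time in the outermost one and in none of the other 4 windows of these genes, against 42.6% of all promoters with at least 1 match.

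**Figure D1:**
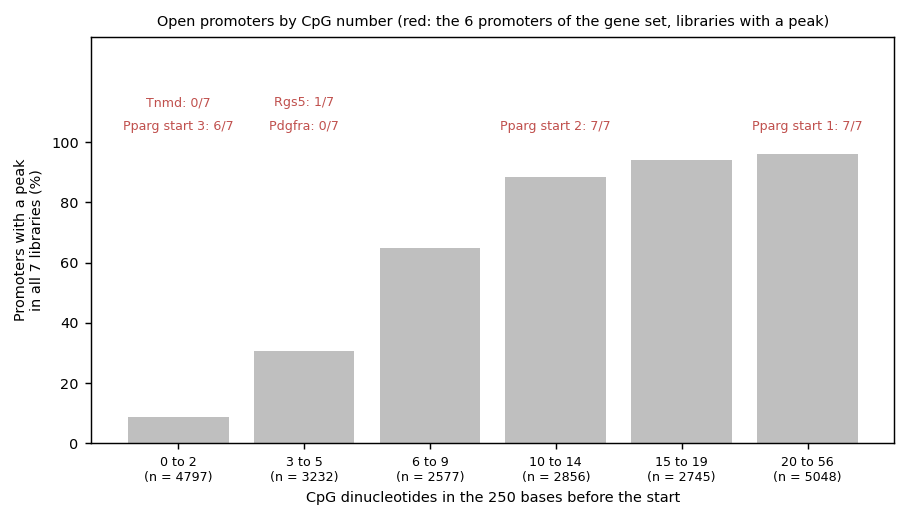
Share of promoters with a peak in all 7 libraries (y axis, percent) by the number of CpG dinucleotides in the 250 bases before the start (x axis, with the number of promoters n in each class). The red text gives, above its class, each RefSeq promoter of the gene set with the number of libraries that had a peak there; the share rises from 8.92% to 96.1%.

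Of the 10 genes, 4 had a promoter peak in all 7 libraries, namely Pdgfrb, Cd248, Scx and Pparg. Over 21440 protein-coding genes with a known start the share was 63.4%. Another 3 genes, Pdgfra, Ly6a and Tnmd, had no promoter peak in any library, against 31.3% of all genes. Dcn, Rgs5 and Lum had one in some libraries. Counted per library, 5, 6, 4 and 4 of the 10 promoters were called in Nedd4L-cKO and 5, 5 and 6 in WT, so the genotypes overlapped. A weak or absent peak in sorted cells cannot tell a small number of cells with an open promoter from slight opening in all of them.

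**Figure D2:**
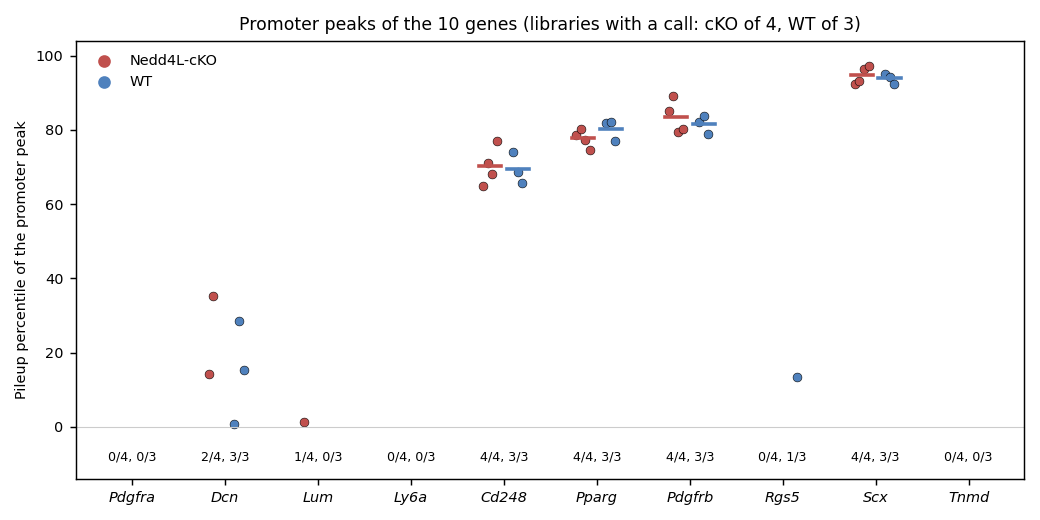
Pileup percentile of the promoter peak (y axis) of each gene (x axis), 1 point per library with a call, Nedd4L-cKO in red and WT in blue; lines are means, drawn for the 4 genes called in all 7 libraries. The counts under the points give the libraries with a call, of 4 Nedd4L-cKO and of 3 WT; by this measure Scx stands highest, and Pdgfra, Ly6a and Tnmd have no point.

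Among the fibro-adipogenic genes, Pdgfra encodes PDGFRα, the receptor for platelet-derived growth factors that defines these progenitors. Its promoter had no peak around either annotated start, while its locus held 6, 6, 7 and 7 peaks in the Nedd4L-cKO libraries and 6, 7 and 6 in WT. Its mean number of peaks, not scaled to gene length, stood at percentile 89.9 of all protein-coding genes, with Pparg at 92.3 and Pdgfrb at 88.2. The region with the highest pileup lay inside the gene, 4.3 to 6.0 kb from the 5′ end (chr5:75155660-75157331). Its percentile was 85.9, 88.0, 88.7 and 87.9 in Nedd4L-cKO and 89.2, 88.2 and 86.5 in WT, with a −log10 q of 8.26 to 10.6. All 7 libraries were high in pileup there and the genotypes overlapped. Its fold percentile was lower, 25.0 to 41.4.

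Regions of the Pdgfra locus at 8.5 to 7.6 kb upstream and at 2.9 to 3.7 kb inside the gene were also called in all 7 libraries, with median percentiles of 61.2 and 72.1. Ranked by fold, the upstream region came first in the locus at a median of 89.0 and the inner one fell to 0.342. Peaks came close to the promoter window in 2 libraries without entering it: 1079 bp from the nearest start in Nedd4L-cKO replicate 3 and 1031 bp in WT replicate 2. A further region at 37.9 to 38.8 kb varied most among the libraries, from percentile 1.37 in Nedd4L-cKO replicate 2 to 62.8 in WT replicate 1.

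**Figure D3:**
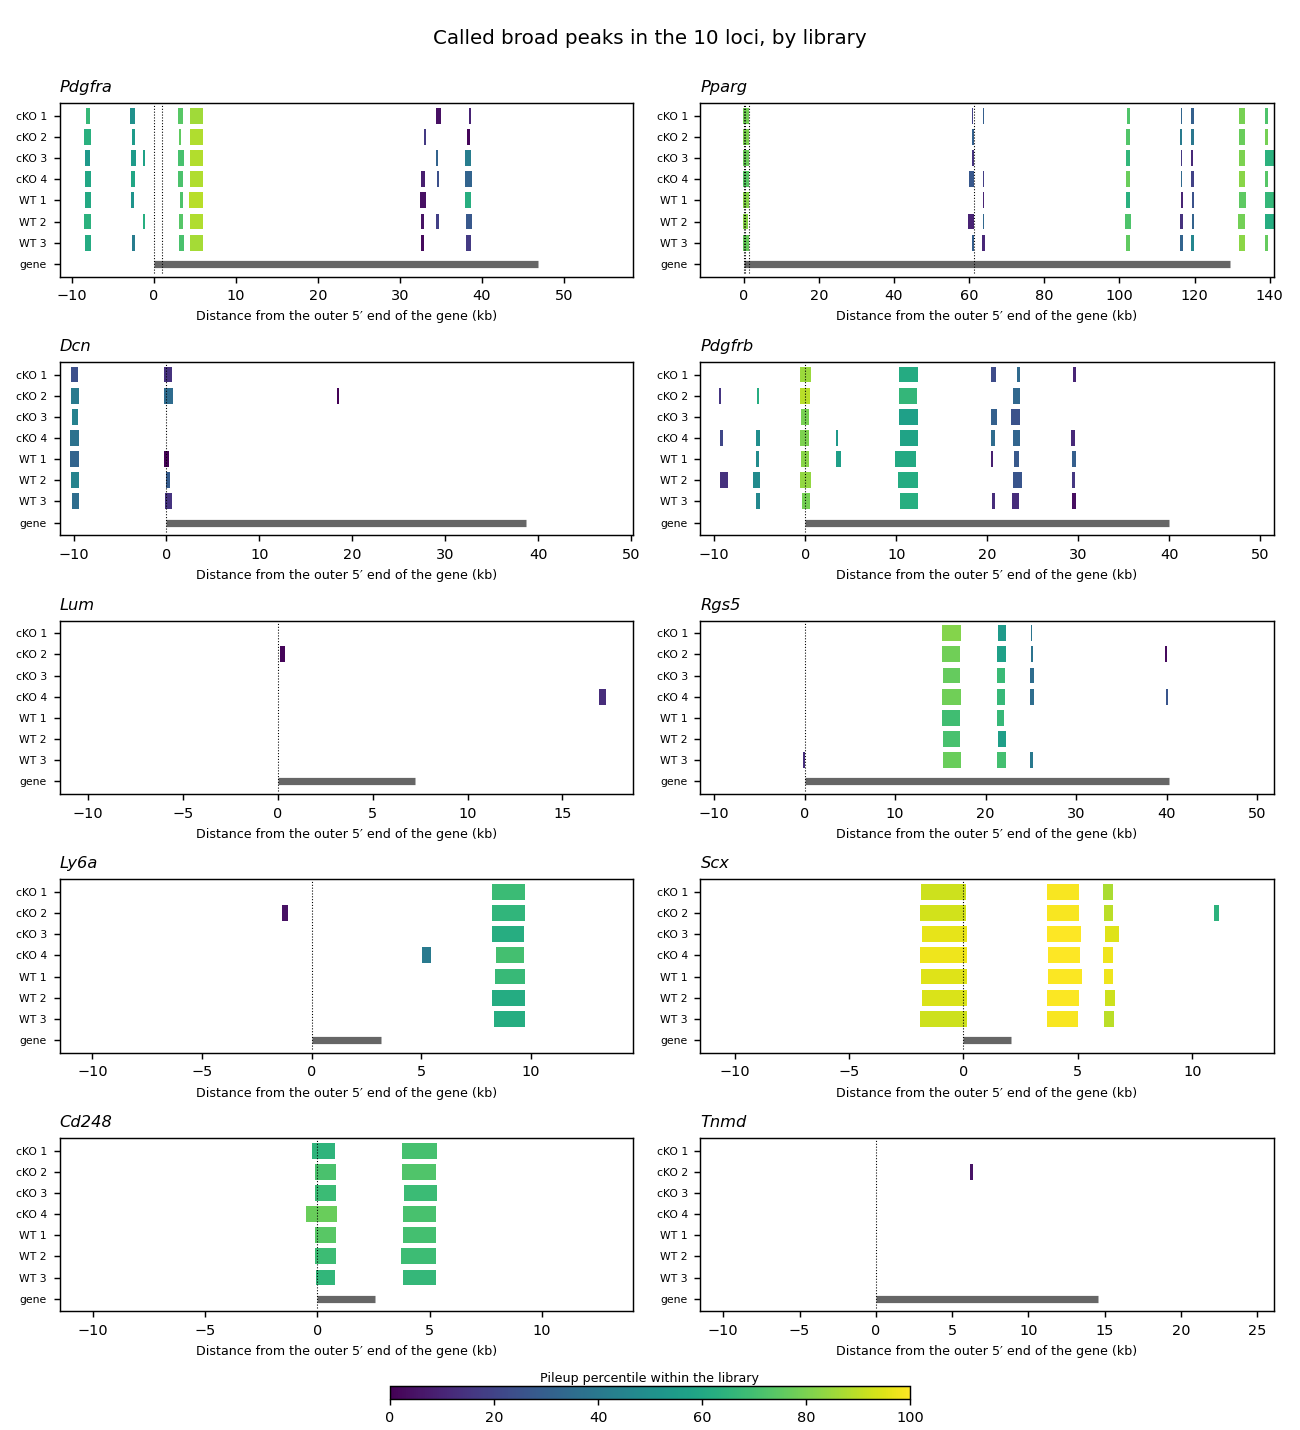
Called peaks in the 10 loci, 1 panel per gene and 1 row per library, drawn to scale by distance from the outer 5′ end of the gene (x axis, kb); colour gives the pileup percentile, the grey bar the gene and dotted lines the annotated starts. Scx shows the highest pileup percentiles, Pdgfra and Rgs5 show peaks inside the gene and none or 1 at the start, and Lum and Tnmd are nearly empty.

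Dcn and Lum lie near each other on chromosome 10 and encode decorin and lumican, small leucine-rich proteoglycans that bind collagen fibrils. The Dcn promoter (chr10:97479234-97480235) was called in 5 of 7 libraries. Its percentile was 14.3 in Nedd4L-cKO replicate 1, 35.1 in replicate 2, and 0.753, 28.6 and 15.2 in WT, with no peak in Nedd4L-cKO replicates 3 and 4. The −log10 q of these peaks was 1.42 to 4.35. The peaks were thus weak in both genotypes. The 2 Nedd4L-cKO libraries without a call held 18.4 and 20.1 M tags, and WT libraries held at most 17.4 M. The cause of the missing calls was not tested. A region 10.4 to 9.4 kb upstream of Dcn was called in all 7 libraries at percentiles of 24.5 to 44.6.

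The Lum promoter had 1 peak, in Nedd4L-cKO replicate 2, at percentile 1.42 and a −log10 q of 1.15, close to the lowest q that was called. The only other peak of the locus lay 16.9 to 17.3 kb from the 5′ end, downstream of the gene, in Nedd4L-cKO replicate 4 at percentile 12.6.

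Ly6a had no promoter peak in either genotype. A single weak peak lay 1075 bp upstream of the start in Nedd4L-cKO replicate 2, at percentile 4.64. The locus held a region in all 7 libraries, 8.2 to 9.7 kb from the 5′ end and so downstream of the gene (chr15:74988294-74989807). Its percentile was 68.1, 65.3, 62.5 and 70.3 in Nedd4L-cKO and 67.3, 61.7 and 62.0 in WT, and the ranges overlapped.

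Cd248 encodes endosialin, a membrane glycoprotein of fibroblasts and pericytes. Its promoter (chr19:5067555-5068951) was called in all 7 libraries, at percentiles of 64.9, 71.1, 68.2 and 77.0 in Nedd4L-cKO and 74.0, 68.7 and 65.7 in WT. The −log10 q was 3.51 to 6.51. A second region 3.7 to 5.3 kb from the 5′ end had percentiles of 66.4 to 72.4, and no library had a further peak. The locus therefore held 2 peaks in each of the 7 libraries.

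Pparg encodes the nuclear receptor PPARγ that drives adipocyte differentiation, and has alternative starts. Its upstream promoter (chr6:115360725-115362360) was called in all 7 libraries, at percentiles of 78.7, 80.2, 77.4 and 74.6 in Nedd4L-cKO and 81.9, 82.2 and 76.9 in WT. The −log10 q was 11.2 to 15.2. This was a strong peak in both genotypes, at fold percentiles of 80.9 to 90.2.

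The inner Pparg start, from which the form typical of adipocytes is made, had a weaker peak (chr6:115420686-115422239). Its percentile was 18.98, 30.2, 15.04 and 27.1 in Nedd4L-cKO and 9.73 and 29.3 in WT replicates 2 and 3, with no peak in WT replicate 1. In each of the 6 libraries with both peaks the inner start lay below the upstream promoter. Regions at 101.6 to 103.0 kb and 131.7 to 133.6 kb, the latter downstream of the gene, were called in all 7 libraries with median percentiles of 72.5 and 79.6. Ranked by fold, the region at 101.6 to 103.0 kb came first in the locus, at a median of 92.1. The locus held 8, 7, 7 and 8 peaks in Nedd4L-cKO and 7, 8 and 8 in WT.

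Of the pericyte genes, Pdgfrb encodes PDGFRβ, which recruits pericytes to vessels. Its promoter (chr18:61044575-61045811) was called in all 7 libraries. The percentile was 85.1, 89.2, 79.3 and 80.2 in Nedd4L-cKO and 82.1, 83.7 and 78.9 in WT, with a −log10 q of 10.7 to 13.7. Its level was high in every library and the genotypes overlapped. A broad region 9.8 to 12.4 kb inside the gene was also called in all 7, at percentiles of 56.5 to 66.2. The locus held 5, 5, 4 and 8 peaks in Nedd4L-cKO and 7, 6 and 6 in WT, of which 1 peak in each of 3 libraries lay at the promoter of the neighbouring homeobox gene Cdx1.

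Rgs5 encodes a regulator of G-protein signalling that is abundant in pericytes. Its promoter had a peak in WT replicate 3 alone, at percentile 13.4 and a −log10 q of 2.34. The region with the highest pileup in the locus lay inside the gene, 15.2 to 17.3 kb from the 5′ end (chr1:169670698-169672757). Its percentile was 81.4, 78.4, 76.2 and 78.5 in Nedd4L-cKO and 69.2, 70.8 and 77.1 in WT. WT replicates 1 and 2 lay below every Nedd4L-cKO library, and WT replicate 3 lay above the lowest of them. A further region at 21.3 to 22.2 kb had percentiles of 54.3 to 70.3 in the 7 libraries. Rgs5 and Pdgfra thus shared a promoter without a regular peak and regions of high pileup inside the gene.

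Of the tendon genes, Scx encodes Scleraxis, the basic helix-loop-helix factor of tendon progenitors. Its start region (chr15:76455502-76457559) was called in all 7 libraries at percentiles of 92.5, 93.1, 96.4 and 97.3 in Nedd4L-cKO and 95.1, 94.4 and 92.3 in WT. The −log10 q was 7.11 to 11.7, and the fold percentile was only 8.65 to 19.9, so the pileup was high and its rise over the local background small. A region 3.7 to 5.2 kb from the 5′ end, downstream of the gene, was higher still, at percentiles of 98.9 to 99.7 by pileup and 11.3 to 35.2 by fold. Another region at 6.1 to 6.8 kb had percentiles of 87.4 to 97.4. Scx lies within the span of Bop1, a ribosome biogenesis gene on the opposite strand, so all of these regions lay inside Bop1 as well, and none lay at an annotated start of it.

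Tnmd encodes tenomodulin, a membrane glycoprotein of mature tendon cells. It had no promoter peak, and its locus held a single peak in all, inside the gene in Nedd4L-cKO replicate 2 at percentile 5.31 and a −log10 q of 1.48. Tnmd lies on chromosome X, where 46.3% of 955 genes had a promoter peak in all 7 libraries, against 65.0% of 20232 autosomal genes.

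By pileup, the order of the median promoter percentiles was Scx at 94.4, Pdgfrb at 82.1, Pparg at 78.7, Cd248 at 68.7 and Dcn at 15.2. Within libraries, Scx lay above the other promoters in all 7 and Pdgfrb above Pparg in all 7, by 0.145 to 9.05 percentile points, although the ranges of Pdgfrb and Pparg over the libraries overlapped. Pparg lay above Cd248 in 6 of 7. By fold enrichment the order turned: Pparg was highest at 80.9 to 90.2, Pdgfrb followed at 72.5 to 79.9, and Cd248 at 8.62 to 26.5 and Scx at 8.65 to 19.9 lay far below them and overlapped each other.

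Other genes of the same cell types were described from lists that were chosen with earlier results of these data known. Of 18 other fibro-adipogenic and fibroblast genes, 15 had a promoter peak in all 7 libraries, led by Hic1 at a median percentile of 91.6 and Pdpn at 89.6. Mfap5, Clec3b and Pi16 had none. Of 11 other pericyte and smooth muscle genes 9 were called in all 7, led by Acta2, the smooth muscle actin gene, at 96.7. Higd1b had none, and Notch3 had a peak in 1 library.

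Of 8 other tendon genes 7 were called in all 7 libraries, led by Egr2, a zinc-finger factor, at 96.3 and Comp, a cartilage and tendon matrix gene, at 81.6. Kera, which encodes keratocan, had a peak in 1. Of 10 adipocyte genes 4 were called in all 7, led by the transcription factor genes Cebpa at 98.1 and Cebpb at 97.6, while 6 had none, among them Adipoq and Plin1, which encode adiponectin and perilipin. The share over all protein-coding genes was 63.4%. These counts are descriptions of the lists and carry no test.

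**Figure D4:**
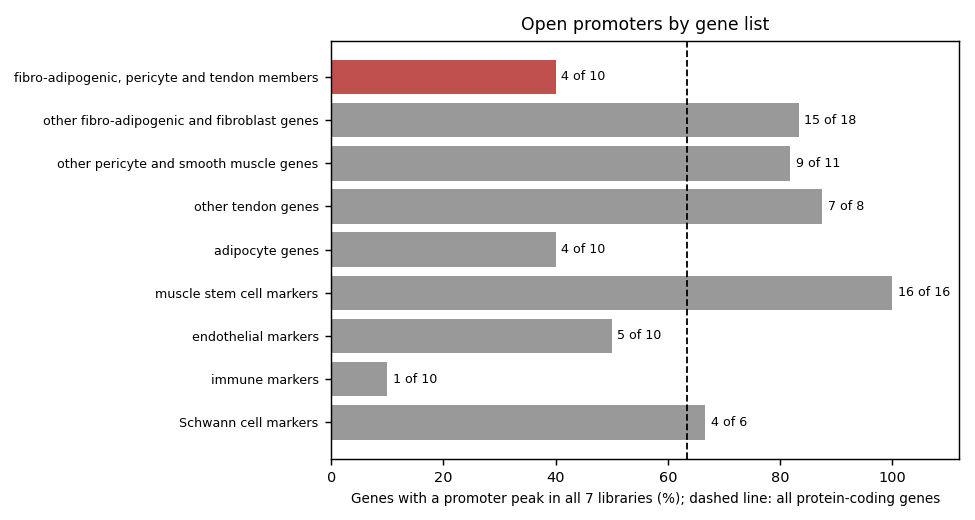
Share of the genes of each list with a promoter peak in all 7 libraries (x axis, percent), with the counts beside the bars and the share over all protein-coding genes as a dashed line. The 10 genes described here (red, 4 of 10) lie below the line, as do the adipocyte genes (4 of 10), the endothelial markers (5 of 10) and the immune markers (1 of 10). All 16 MuSC markers were called.

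The genotypes were compared over all loci and regions. In the 10 loci together, the libraries held 30, 35, 28 and 36 peaks in Nedd4L-cKO (32.3 ± 3.86, SD, n = 4) and 30, 31 and 32 in WT (31.0 ± 1.00, SD, n = 3), a difference of 1.25 that was smaller than the spread of the Nedd4L-cKO libraries and turned to −0.667 with peaks of a −log10 q of at least 5. Of the 9 loci whose number of peaks varied, none had an unadjusted p under 0.05 in the exact permutation test, against 0.663% of 11919 genes tested. The lowest p of these loci was that of Rgs5, with 3, 4, 3 and 4 peaks in Nedd4L-cKO and 2, 2 and 4 in WT (two-sided exact permutation p = 0.4, 1 after Benjamini-Hochberg adjustment over all genes). Its difference of 0.833 became 1.5 without WT replicate 3 (exact permutation p = 0.133). The Pdgfrb difference of −0.833 became −1.67 without Nedd4L-cKO replicate 4 (exact permutation p = 0.1, the lowest possible there). In both cases the remaining counts did not overlap between genotypes, at Pdgfrb 5, 5 and 4 in Nedd4L-cKO against 7, 6 and 6 in WT. Leaving out a library lowered the number of splits, so that no p under 0.05 was possible. With 35 possible splits the test could not fall below 0.0286, and the adjusted p was 1 for every gene. With all 7 libraries, the counts overlapped between genotypes in each of the 9 loci. Over all genes tested they did not overlap in 0.713%, so 9 loci are too few to differ from that share.

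Overlapping peaks of the 7 libraries merged into 44 regions in these loci, 22 of them (50%) present in every library and 8 present in 1, whereas 56.0% of the 95163 regions of the genome were present in every library. No region of the loci was called in every Nedd4L-cKO and no WT library, as 0.0694% of all regions were. None was called in every WT and no Nedd4L-cKO library, as 0.082% were. The percentiles of the genotypes overlapped in each of the 22 shared regions. Over the 53245 shared regions of the genome 3.23% did not overlap, so 22 regions are too few to differ from that share.

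The limma fit used normal scores, in which pileup ranks are mapped onto a standard normal distribution with an SD of 1 unit. Over 53245 shared regions, 0 passed an adjusted p of 0.05 in limma (0.0%), and 1445 (2.71%) had an unadjusted p under 0.05. Of the 22 regions of these loci 0 passed at either level. The median shift from WT to Nedd4L-cKO was 0.0301 over the 22 regions and −0.00126 over all regions, with 13 of the 22 mean percentiles higher and 9 lower in Nedd4L-cKO.

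The lowest p was that of the Rgs5 region at 15.2 to 17.3 kb, at 78.6 ± 2.11 in Nedd4L-cKO (SD, n = 4) and 72.4 ± 4.16 in WT (SD, n = 3). Its shift was 0.215 with an SE of 0.106 (limma, unadjusted p = 0.0790, adjusted p = 1.00). When any single library was left out, the shift ranged from 0.161 to 0.294. Among lower regions the lowest p was that of the Pparg region at 119.1 to 119.9 kb, with 30.4, 39.8, 11.6 and 19.9 in Nedd4L-cKO and 25.2, 31.6 and 45.8 in WT. Its shift was −0.394 with an SE of 0.313 (limma, unadjusted p = 0.244), and it ranged from −0.599 without Nedd4L-cKO replicate 2 to −0.204 without WT replicate 3.

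The promoter regions shifted by 0.0874 with an SE of 0.143 at Pdgfrb, by 0.0276 with an SE of 0.110 at Cd248 and by 0.114 with an SE of 0.144 at Scx. The Pparg promoter shifted by −0.107 with an SE of 0.111. The region of high pileup inside Pdgfra shifted by −0.0217 with an SE of 0.0888, and that downstream of Ly6a by 0.0842 with an SE of 0.0941. Each of these shifts was smaller than its SE, which leaves smaller changes untested in either direction.

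**Figure D5:**
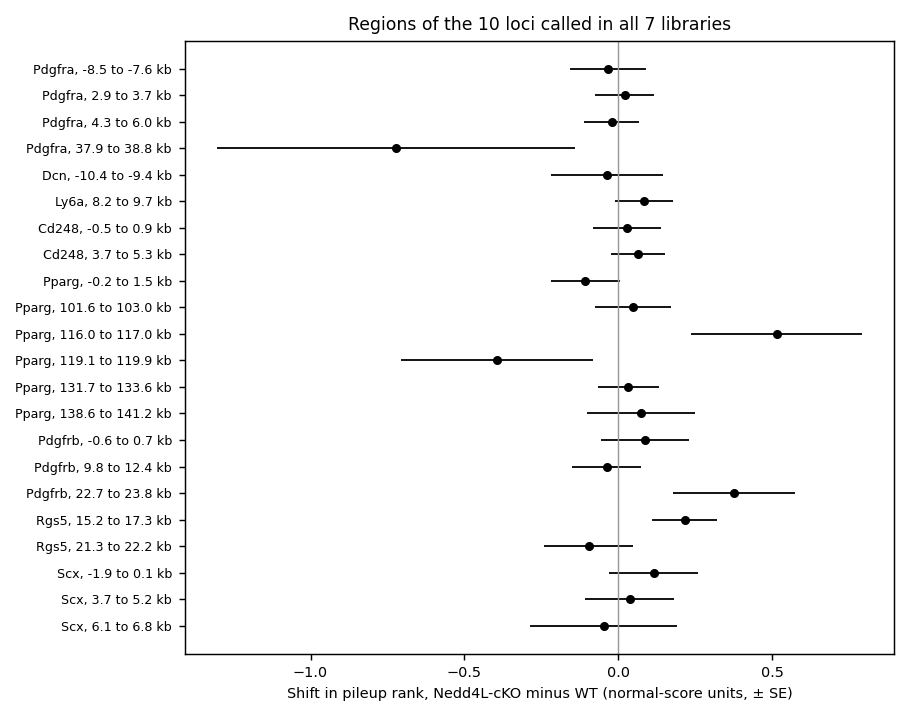
Shift in pileup rank from WT to Nedd4L-cKO (x axis, normal-score units, points with ± SE) for the 22 regions of the 10 loci called in all 7 libraries, labelled by gene and by distance from its 5′ end (y axis). The shifts lie between −0.723 and 0.514; the widest bar belongs to the Pdgfra region at 37.9 to 38.8 kb, with an SE of 0.581.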

How the data were processed

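ATAC-seq was performed on 7 libraries, 4 labelled Nedd4L-cKO and 3 labelled WT. Adapters were trimmed by the authors with Trimmomatic 0.39, reads were aligned to mm10 with BWA 0.7.17, and duplicates were removed with Picard 2.26.3. Peaks were called per library by the authors with MACS2 2.2.7.1 in broad mode, without a control and without pooling (shift of -100 bp, extension of 200 bp, q-value cutoff of 0.1, 1 tag kept per position). The deposited pileup is a signal, the mean coverage over a peak, and was not corrected for depth. The authors also deposited a fold enrichment, the ratio of pileup to local background, and, on the −log10 scale, the deposited q-value and p-value. The narrow peaks inside broad ones came from the deposited gapped lists.

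Peaks on 21 chromosomes were used, and the 2 mitochondrial peaks per library were left out. Gene spans and starts came from RefSeq on GRCm38, with GENCODE strands matched on symbol and chromosome, and 21440 of 21887 genes had a start. Starts were the outer 5′ end and the RefSeq transcript starts. Peaks that overlapped by at least 1 bp were merged into regions. Identical peaks between libraries numbered 0 in every pair, so no peak list was a copy of another. Each library was counted as 1 replicate by its label. Exact permutation tests used Python 3.11.15 with numpy 2.4.6 and pandas 2.3.3, and ranks were compared with limma 3.58.1 in R 4.3.3. Both steps were tested on simulated data with planted changes larger than any seen at these loci. That test does not tell whether changes of the size seen here could be found. Pileup percentiles cover no counting error, and the number of tags limits which weak peaks are called.

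The genes and lists were chosen with earlier results of these data known. The text names all 10 genes, the region at each promoter or, without one, the strongest region, the region with the lowest p in each direction, and up to 4 examples per list. More were named from the list of other fibro-adipogenic and fibroblast genes, and all of the endothelial markers were named. Other regions were chosen after their values were seen. Alternatives were a −log10 q of at least 5, peaks holding a narrow peak, equal numbers of peaks, other windows, ranks by fold, a covariate for tags, a replicate block and leaving out each library. Using the outer start alone and ordering promoters by fold were added after seeing the data.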

Additional observations from a re-analysis of the deposited data

Results flagged for a closer look

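A library stood far from the others of its group in 2 of 33 measures checked in the 4 Nedd4L-cKO libraries, both times Nedd4L-cKO replicate 2. Chance flags about 1 in 20 groups of continuous values, a rate that does not apply to these counts: the other 3 libraries were tied, so that any single extra peak is marked. The Scx locus held 4 peaks in that library and 3 in each of the others, the extra peak lying 10.97 to 11.19 kb from the 5′ end at percentile 64.4. The Tnmd locus held 1 peak in that library and 0 in each of the others.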

How the results depend on the processing

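The 4 genes with a promoter peak in all libraries stayed 4 when any library was left out. This was fixed by the calls: a gene called in all 7 libraries stays called, and the next gene, Dcn, was called in 5. The number of genes with no promoter peak, 3, became 6 with a −log10 q of at least 5, 5 with peaks that hold a narrow peak, 1 (Tnmd) with a start window of 2.5 kb, and 3 to 4 when a library was left out. The −log10 q limit also took Cd248 out of the genes called in all libraries, and the 2.5 kb window brought Pdgfra in. Of the single values under these settings, 179 kept their direction, 11 stayed at 0, 27 went to or from 0 and 15 turned, and none crossed its threshold. For peaks per locus this outcome was fixed in advance with a library left out and with the replicate block. The exact test could not give a p under 0.05 in those settings.

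The difference in peaks over the 10 loci, 1.25, became −0.667 with a −log10 q of at least 5 and 0.167 with narrow peaks. The narrow-peak setting removed unlike shares of the peaks. Of all peaks, 84.7% to 87.3% held a narrow peak in the Nedd4L-cKO libraries. In WT replicates 1, 2 and 3 the share was 92.5%, 92.8% and 86.0%. Directions of uncalled differences in peaks per locus (Nedd4L-cKO minus WT) turned at Pdgfra from 0.167 to −0.0833 with the gene span alone, −0.333 with a −log10 q of at least 5 and −0.5 with narrow peaks. At Pdgfrb they turned from −0.833 to 0.25 and 0.333 under the last 2 settings. With the −log10 q limit they turned to −0.5 at Scx and −0.167 at Rgs5, and with 20 kb on both sides to 0.667 at Pparg. The shift in rank turned to −0.0650 at the Pdgfrb promoter when ranked by fold and to −0.00252 at the Cd248 promoter with tags as a covariate. Leaving out 1 library gave −0.00885 to 0.162 at the Pdgfrb promoter, −0.0350 to 0.0998 at the Cd248 promoter, −0.0615 to 0.0121 at the Pdgfra region, −0.599 to −0.204 at the Pparg region at 119.1 to 119.9 kb, and 0 to 2.67 for peaks over the 10 loci. The cause was not tested.

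Replicate numbers did not pair the libraries (correlations of same-numbered deviations of −0.218, 0.0978 and −0.241). With the replicate block, limma called 0 regions (1454 at an unadjusted p under 0.05), the peaks over the 10 loci differed by 0, and the Cd248 promoter shifted by −0.0203. In all limma settings 0 regions passed, with 555 (regions with a −log10 q of at least 5) to 2533 at an unadjusted p under 0.05 and a lowest adjusted p of 0.529 with tags as a covariate. The Lum promoter and Tnmd peaks, with a −log10 q of 1.15 and 1.48, are near the limit of what was called at this depth.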
